A study of Mus musculus with 12 samples.

Results

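The genes described here encode the protein parts of the cytosolic ribosome. They were chosen by name alone, as the count table's symbols that consist of Rpl or Rps and a number, with at most a trailing letter, a trailing digit or both (as in Rpl22l1), plus Rpsa and the stalk genes Rplp0, Rplp1 and Rplp2. This rule found 83 of 25793 genes, 51 of them for the large subunit and 32 for the small subunit. No measured value entered the choice, but it was made with earlier results of these libraries known.

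Ribosomal proteins of the small subunit surround the site where mRNA is decoded, and those of the large subunit surround the site where peptide bonds form. Their mRNAs are very abundant in growing cells and begin with a terminal oligopyrimidine (TOP) tract, through which mTORC1, a kinase complex switched on in activated T cells, controls their translation. Most of these genes have processed pseudogenes, copies of the mRNA inserted elsewhere in the genome.

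RNA was sequenced in 12 libraries of CD4+ OT-II T cells, which recognise an ovalbumin peptide, from the C57BL/6 strain. In 6 libraries the cells were wild type (Pdcd1+/+, WT), and in 6 they carried a knock-in allele of Pdcd1, the gene of the inhibitory receptor PD-1, on both chromosomes (Pdcd1KI/KI, KI). What the allele changes and how old the animals were are not given in the sources used here. Cells of both genotypes had been transduced to carry GFP and put into B6 hosts along with MD4 B cells that expressed dsRed. The hosts were immunized under the skin with HEL-OVA, LPS and alum, and the GFP+ CXCR5hi T cells were taken from lymph nodes on day 5. Each library came from 100 to 200 sorted cells, amplified by a protocol first made for single cells. The library titles hold 2 numbers that the labels do not explain. The first is 1 or 2, with 3 WT and 3 KI libraries at each. Where such libraries are not separate animals, p-values measure only the spread between libraries.

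Gene counts ran from 717506 to 1801504 per library. Pdcd1, the gene the knock-in alters, was at 166 to 523 CPM (counts scaled to a library total of 1000000) in the 6 WT libraries and at 21.5 to 130 CPM in the 6 KI libraries, without overlap. All 12 follicular helper T cell markers had counts, with sums of 4168 to 5612 CPM over the libraries. Of 10 B cell markers, summed levels were 116 to 236 CPM at first number 1 and 178 to 337 CPM at first number 2, with Pax5 at 0 throughout. The 10 markers of cytotoxic cells summed to 66.1 to 231 CPM at first number 1 and to 215 to 545 CPM at first number 2, with Ncr1 at 0. Of 11 myeloid markers in the table, sums were 1.24 to 240 CPM at first number 1 and 1.25 to 56.1 CPM at first number 2, with Itgax, Cd14, Fcgr1, Clec9a and S100a8 at 0 in all libraries. WT 1-3 alone had 240 CPM, and the other 5 libraries of first number 1 had at most 12.6 CPM. The 6 erythroid markers summed to at most 5.08 CPM. The part of these cells in the results below was not tested.

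Most ribosomal protein genes were among the most highly expressed genes of these T cells. Genes were compared by the deposited FPKM values, which are scaled by transcript length. In some members these values were out of step with the counts, as given below. They averaged at least 1000 for 70 of the 83 members, and only 110 genes of the whole table reached that level. These 70 comprised 40 large-subunit and 30 small-subunit genes. Rplp1, an acidic protein of the stalk that recruits elongation factors, had the highest level, at 11266 ± 3149 FPKM (SD, n = 12). Rps16 followed at 10502 ± 1852 FPKM, Rpl13a at 9263 ± 2525 FPKM, Rpsa at 8324 ± 3283 FPKM and Rps9 at 8011 ± 1746 FPKM (SD, n = 12 each). These 5 levels lay within their spread of one another from each rank to the next.

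**Figure D1:**
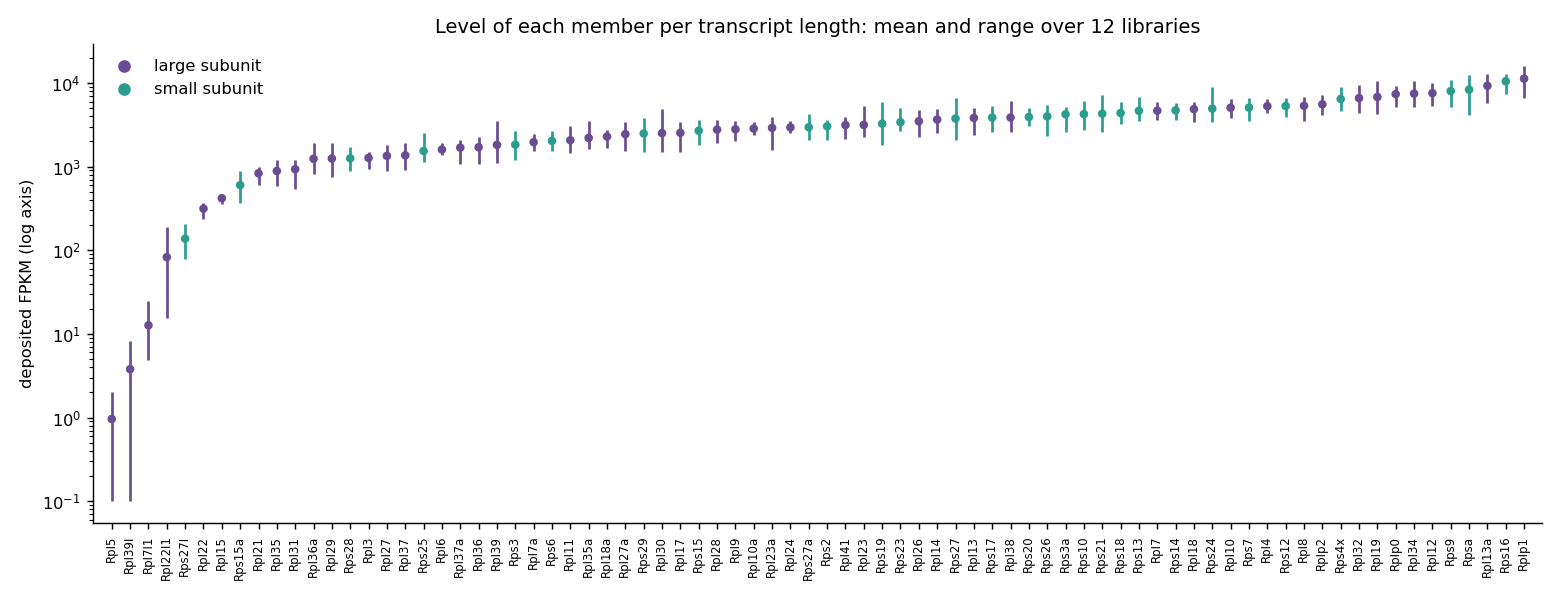
Deposited FPKM of 78 of the 81 members with at least 1 count, on a log axis, ordered from low to high. Points are means, lines run from the lowest to the highest of 12 libraries with listed zeros drawn at 0.1, and colours mark the subunit. Most members lie between 1000 and 11266 FPKM, and the paralog copies Rpl39l, Rpl7l1, Rpl22l1 and Rps27l lie at the low end.

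The low end of this order was made up mainly of paralogs, second copies of a ribosomal protein gene. Rpl10l and Rpl3l, copies of Rpl10 and Rpl3 best known from testis and from muscle, had 0 counts in all 12 libraries. A count of 0 allows up to 3 counts, which is 1.67 to 4.18 CPM of gene counts in these libraries. Rpl39l, the copy of Rpl39, had 0 to 12 counts and 3.79 ± 2.98 FPKM (SD, n = 12). Rpl7l1 was measured at 12.7 ± 5.80 FPKM, Rpl22l1 at 82.7 ± 57.2 FPKM and Rps27l at 138 ± 40.7 FPKM (SD, n = 12 each). Of their main forms, Rpl7 at 4662 ± 716 FPKM and Rps27 at 3760 ± 1267 FPKM were far higher (SD, n = 12 each). Rpl22, at 314 ± 41.2 FPKM (SD, n = 12), was closer to its copy. In WT 2-2, where Rpl22l1 was highest, the values were 364 FPKM for Rpl22 and 189 FPKM for Rpl22l1.

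A few members had counts that were low, or out of step with their FPKM. Rpl5, which pairs with Rpl11 in the particle that can bind Mdm2, had only 2 to 11 counts per library and 0.961 ± 0.599 FPKM (SD, n = 12). Its exons share 46.6% of their bases with Fam69a in the GENCODE annotation of the mouse build NCBIM37, and every window of 50 coding bases also occurs elsewhere in the genome. Rpl39 had 27 to 79 counts per library, although its deposited level was 1098 to 3561 FPKM. Rps15a showed the opposite relation, with 3570 to 7500 counts and 370 to 876 FPKM. Over the 82 members with an annotated coding sequence, a median of 89.97% of the 50-base windows occurred elsewhere in the genome, and 28 members had no unique window. Among those 28 were Rpl11, Rpl19 and Rps16, the last with 7001 to 14749 counts. The share of such windows was 99.9% in Rpsa and 8.05% in Rps3. The part of read assignment in these values was not tested. The count table sets aside reads aligned to more than 1 place, so member counts come from the remaining reads. Exons of 6 further members overlap another gene, with the largest shares in Rpl35 (68.3%, Wdr38) and Rpl23a (55.4%, Tlcd1). Whether counting used strand is not given, so reads of such pairs cannot be told apart. In all, 79 members passed the filter on low counts, and Rpl5, Rpl39l, Rpl10l and Rpl3l did not.

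Ribosomal protein genes took between 19.8% and 33.0% of all gene counts. In WT at first number 1 the shares were 27.7%, 33.0% and 32.9%, and in WT at first number 2 they were 25.6%, 23.2% and 21.7%. In KI they were 21.7%, 29.3% and 26.5% at first number 1 and 28.4%, 19.8% and 23.6% at first number 2. The highest values, in WT 1-2 and WT 1-3, stood above all other libraries. The third library of that set lay within the range of KI, and WT at first number 1 lay above WT at first number 2 without overlap. Wilson intervals of 95% around single shares were at most 0.217 percentage points wide and cover counting error only, since amplified reads are not independent molecules. Rpsa alone took 1.04% to 3.24% of gene counts.

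Averaged by genotype, the share was 27.4% ± 4.78 in WT and 24.9% ± 3.81 in KI (SD, n = 6 each), a difference of -2.48 percentage points that is smaller than either SD. By first number it was 28.5% ± 4.26 at 1 and 23.7% ± 3.00 at 2 (SD, n = 6 each), a difference of -4.81 points. The small-subunit share moved from 13.4% to 10.7% and the large-subunit share from 15.1% to 13.0%. Mean log2 CPM over the 79 members was 11.20 ± 0.34 in WT and 10.98 ± 0.36 in KI, and 11.19 ± 0.41 at first number 1 and 10.98 ± 0.29 at first number 2 (SD, n = 6 each). In bulk RNA, less RNA per cell and fewer cells of a type cannot be told apart.

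**Figure D2:**
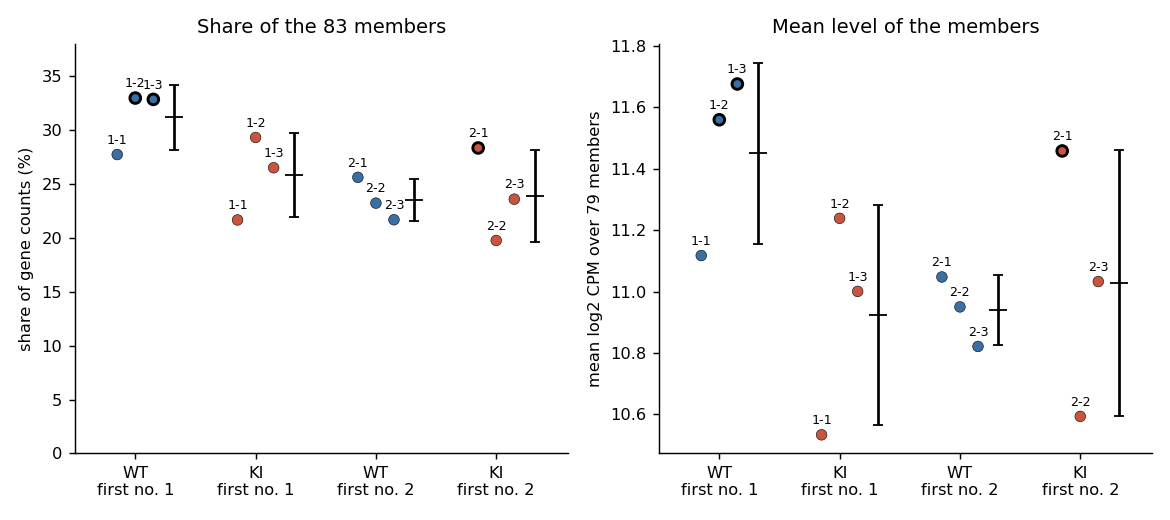
Share of gene counts in percent (left) and mean log2 CPM (right) of the ribosomal protein genes in each library, grouped by genotype and first title number. Labelled points are libraries, heavy outlines mark the 3 libraries under 1000000 gene counts, and bars are the mean ± SD of 3 libraries. The 3 outlined libraries have the highest mean log2 CPM of all 12.

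Library depth moved with these levels. WT 1-2, WT 1-3 and KI 2-1 were the 3 libraries under 1000000 gene counts, and they had the 3 highest values of mean log2 CPM, at 11.56, 11.68 and 11.46. They also had the 3 highest shares of reads aligned to more than 1 place, at 30.3%, 43.8% and 34.3%, against 26.7% to 29.0% in the others. Without them the KI minus WT difference in share was -0.39 points, and the difference between first numbers was -3.53 points. Of WT at first number 1 only WT 1-1 then remained. Genotype and first number were no longer balanced, so each of these differences holds part of the other. The part of depth and of multiply aligned reads in the levels was not tested beyond this.

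Between KI and WT no ribosomal protein gene changed in the quasi-likelihood test of edgeR, which called 0 of 79 members at an adjusted p under 0.05, where 0.0265% of all 7542 tested genes were called. DESeq2 and limma-voom also called 0 members. At an unadjusted p under 0.05 there were 5 members by edgeR, or about the background of 5.4% of all genes. DESeq2 had 8 members (5.97% of all genes) and limma-voom 7 (7.08% of all genes). The fold changes leaned to one side. They were negative for 73 of 79 members, with a median log2 fold change of -0.21, beside 0.02 over all genes. All 32 small-subunit genes were negative (median -0.25), and 41 of 47 large-subunit genes were (median -0.17). Leaving out 1 library moved the median to between -0.33 and -0.09. It was -0.09 without WT 1-3, -0.12 without WT 1-2, -0.13 without KI 1-1 or KI 2-2, and -0.33 without KI 2-1. Without all 3 libraries under 1000000 gene counts it was -0.06 and 31 of 79 members were positive. That fit had no term for first number and kept only WT 1-1 of WT at first number 1. The first numbers were thus unevenly spread over the genotypes, and depth and first number cannot be told apart in this change.

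The most negative log2 fold changes were those of Rps27, Rpl30, Rps24 and Rps25. Rps27, a zinc-finger protein of the small subunit, was at 1076, 1461 and 2863 CPM in WT (lowest, median, highest) and at 691, 1267 and 1713 CPM in KI. The ranges overlapped, and the log2 fold change was -0.61 (SE 0.27, adjusted p = 0.917). Rpl30 had -0.58 (SE 0.25), Rps24 -0.57 (SE 0.28) and Rps25 -0.56 (SE 0.24), each with an adjusted p above 0.9. At the other end stood Rpl7l1 with a log2 fold change of 0.30 (SE 0.38), Rpl7a with 0.21 (SE 0.17), Rpl11 with 0.13 (SE 0.23) and Rpl3, which lies close to the peptidyl transferase centre, with 0.13 (SE 0.17). Rps6, the target of S6 kinase, averaged 4076 ± 1539 CPM over the WT libraries and 3725 ± 1006 CPM over the KI libraries (SD, n = 6 each). Its log2 fold change was -0.13 (SE 0.24, adjusted p = 0.969).

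By first title number the members did not move as one. In a fit with genotype as covariate, edgeR called 15 of 79 members lower at first number 2, where 7.54% of all genes were lower, and 2 members higher, where 8.47% of all genes were higher. The 15 were 8 large-subunit and 7 small-subunit genes. The median log2 fold change of the members was -0.28, beside 0.01 over all genes, and 23 of 79 were positive. That median differed by genotype, with -0.62 and 7 of 79 positive in WT alone and 0.13 and 46 of 79 positive in KI alone. Despite the 15 calls, in 0 members were all 6 libraries of first number 2 below all 6 of first number 1, where 3.51% of all genes were. In 2 members, Rpl11 and Rpl22l1, all 6 were above, where 2.97% of all genes were. Leaving out 1 library changed the 17 calls to 8 without WT 2-3, 10 without KI 1-2, 11 without WT 2-2 or KI 2-2, 28 without KI 1-1 and 34 without KI 2-1. In these fits 9.75% (without KI 2-2) to 16.1% (without KI 1-1) of all genes were called. The median was -0.14 without WT 1-3, -0.18 without WT 1-2 and -0.19 without WT 2-3. It was -0.37 without KI 1-1 and -0.39 without KI 2-1. Without the 3 libraries under 1000000 gene counts 20 members were called, where 9.28% of all genes were. They shared 13 of the 15 lower calls and 1 of the 2 higher calls, and the members' median was -0.15.

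**Figure D3:**
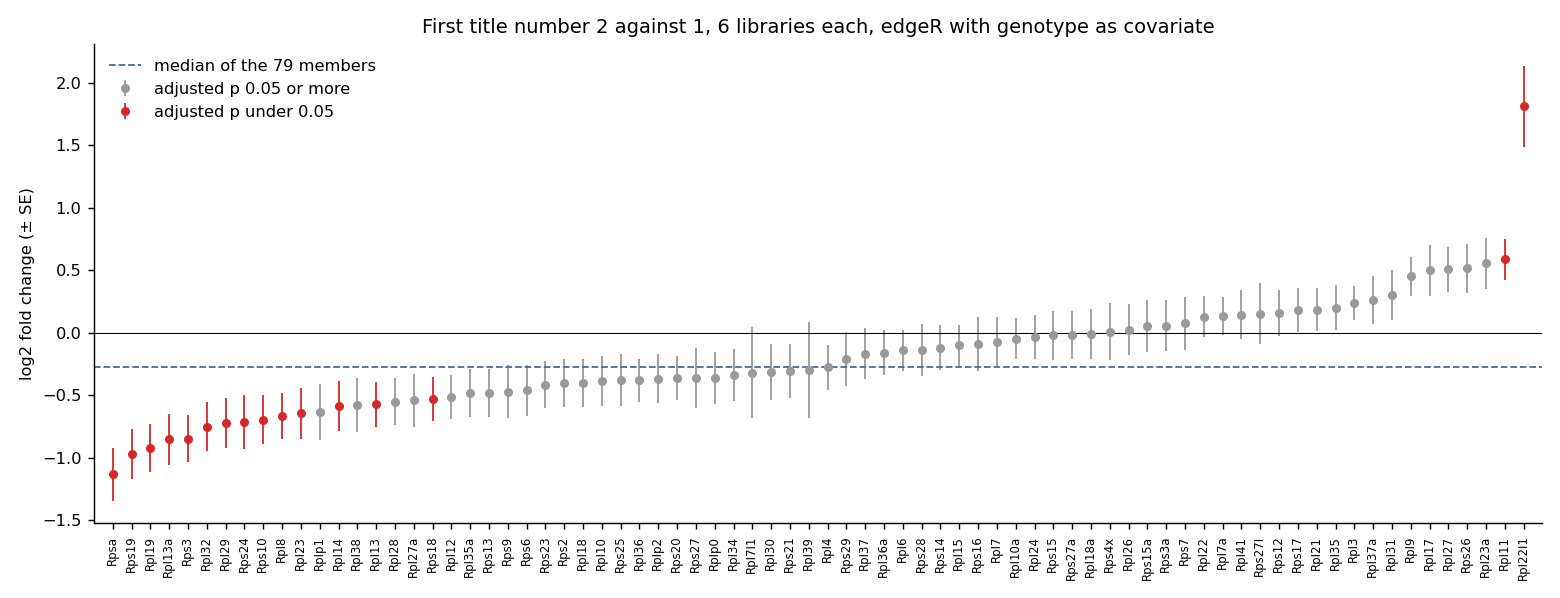
Log2 fold change of 76 of the 79 tested members at first title number 2 against 1, with its SE, from the edgeR fit over 12 libraries with genotype as covariate. Red marks an adjusted p under 0.05 and the dashed line the median of -0.28 over all 79. Values run from -1.13 for Rpsa to 1.81 for Rpl22l1.

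Rpsa, a small-subunit protein also known as the laminin receptor precursor, fell farthest. At first number 1 it was at 26724, 32183 and 41649 CPM in WT and at 18298, 32339 and 28234 CPM in KI. At first number 2 it was at 14919, 12439 and 12119 CPM in WT and at 20280, 9085 and 12406 CPM in KI. Only KI 2-1 at first number 2 exceeded the lowest library of first number 1, KI 1-1. The log2 fold change was -1.13 (SE 0.21, adjusted p = 0.0012), and without the 3 shallow libraries it was -1.19. Rpsa held 2.78% ± 0.40 of gene counts at first number 1 and 1.36% ± 0.24 at first number 2 (SD, n = 6 each), so that it made up 1.42 of the 4.81 points by which the share of all members differed.

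Rps19, which is needed to mature the small subunit and is mutated in Diamond-Blackfan anaemia, averaged 3538 ± 1222 CPM at first number 1 and 1757 ± 345 CPM at first number 2 (SD, n = 6 each). It fell by 0.97 on the log2 scale (SE 0.20, adjusted p = 0.0022). Its libraries ran from 1856 to 5016 CPM at first number 1 and from 1244 to 2275 CPM at first number 2. Rpl19 fell from 8817 ± 2249 to 4603 ± 1008 CPM (log2 fold change -0.92, SE 0.19, adjusted p = 0.0023). Rpl13a, a protein also known from the complex that silences inflammatory mRNAs in myeloid cells, fell from 6414 ± 1362 to 3564 ± 1165 CPM (log2 fold change -0.85, SE 0.20, adjusted p = 0.0065). Rps3, which lines the mRNA entry channel, fell from 6195 ± 1738 to 3414 ± 556 CPM (log2 fold change -0.85, SE 0.19, adjusted p = 0.0038). In each of these genes KI 1-1 was the lowest library of first number 1 and KI 2-1 the highest of first number 2. Rpl32, Rpl29, Rps24, Rps10, Rpl8, Rpl23, Rpl14, Rpl13 and Rps18 also fell, by 0.53 to 0.75 on the log2 scale. In KI alone, with 3 libraries on each side, edgeR called 0 of 79 members lower, where 153 of all 7711 tested genes were lower. At an unadjusted p under 0.05 there were 13 of 79 members in either direction, where 21.4% of all genes were. In that fit Rpsa had a log2 fold change of -0.91 (SE 0.35, adjusted p = 0.139), Rpl19 -0.63 and Rps19 -0.62.

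Rpl22l1 rose most. It is the paralog of Rpl22, an RNA-binding large-subunit protein that T cell development depends on. At first number 1 it was at 41.2, 28.3 and 34.0 CPM in WT and 8.26, 13.6 and 13.7 CPM in KI. At first number 2 it was at 67.1, 105 and 56.6 CPM in WT and 53.6, 85.3 and 66.5 CPM in KI. Thus KI at first number 1 was lowest, WT at first number 1 came next without overlap, and both genotypes overlapped at first number 2. The values at first number 1 rest on 59, 24 and 19 counts in WT and 13, 22 and 20 in KI. Unscaled counts thus overlapped there, and counting error adds to these levels. The log2 fold change between first numbers was 1.81 (SE 0.33, adjusted p = 0.0008). Within first number 1 the KI against WT value was -1.55 (SE 0.57, adjusted p = 0.365), and within first number 2 it was -0.15 (SE 0.34). The interaction was 1.39 (SE 0.57, adjusted p = 0.616), so a difference between the first numbers in the genotype effect was not called. Rpl22 itself was at 880 ± 214 and 952 ± 120 CPM at first numbers 1 and 2 (SD, n = 6 each). Its log2 fold change was 0.13 (SE 0.16, adjusted p = 0.643).

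Rpl11, the partner of Rpl5, rose from 958, 1263 and 1414 CPM (lowest, median, highest) at first number 1 to 1446, 1720 and 2781 CPM at first number 2. All 6 libraries of first number 2 lay above all 6 of first number 1, with a log2 fold change of 0.59 (SE 0.17, adjusted p = 0.0202). Without the 3 shallow libraries it was 0.47, with an adjusted p of 0.0746. The next positive values, which did not pass the test, were 0.55 (SE 0.20) for Rpl23a and 0.51 (SE 0.19) for Rps26. Exons of Rpl23a overlap Tlcd1, as given above.

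**Figure D4:**
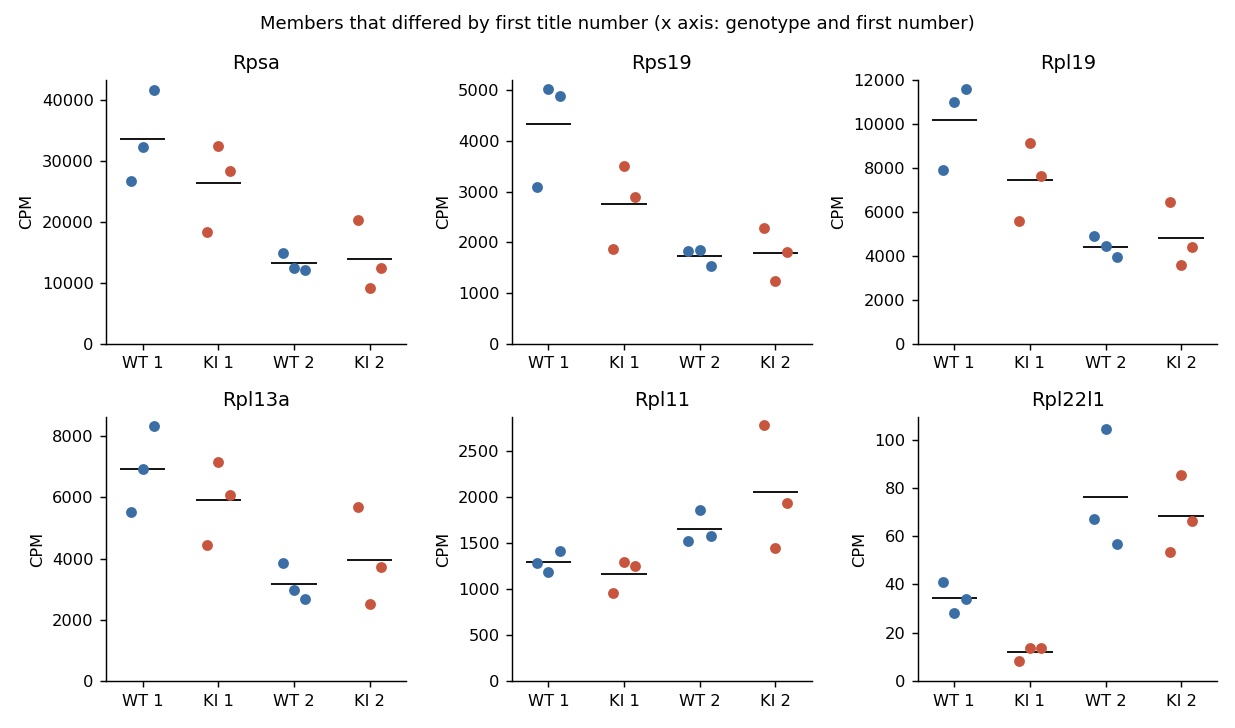
CPM of 6 members in every library, by genotype and first title number, with lines at the mean of 3 libraries. Rpsa, Rps19, Rpl19 and Rpl13a are lower at first number 2 with some overlap, and for Rpl11 and Rpl22l1 all 6 libraries of first number 2 lie above those of first number 1.

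Sequence at or near the annotated starts of some of these genes is shown because the TOP tract is the sequence feature the family is best known for. A run of at least 7 letters that starts with C and goes on with C or T only was searched on the gene's own strand, from 10 bases before to 50 bases after the RefSeq starts (build GRCm38.p6). It was found for 46 of 62 members in that table (74.2%) and for 28.2% of all 27025 genes in it. Of the members that fell, 7 of 11 had a run, and of those with a positive difference 14 of 17 did. Windows of 30 bases follow, with the run in capitals. Both members that rose are followed by 5 that fell.
Rpl22l1, chr3:28805506-28805535, plus strand: ccgttCTCTTCCCacggctgcagctcaaca
Rpl11, chr4:136053355-136053384, minus strand: gaagtCTCCCTCTCTCTTCCTgttctccac
Rpl13a, chr7:45128719-45128748, minus strand: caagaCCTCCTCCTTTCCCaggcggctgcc
Rpl19, chr11:98026944-98026973, plus strand: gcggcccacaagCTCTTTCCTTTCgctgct
Rpl14, chr9:120571504-120571533, plus strand: gcgggCCCTCTCTCTTCTCgctgagcgccg
Rps10, chr17:27635223-27635252, minus strand: gcacgCCCCTTCCTTTCCagcctccgcctc
Rps18, chr17:33955643-33955672, minus strand: ttccgCTCTCTCTTCCacaggaggcctaca
The run was 16 letters long in Rpl11 and 8 in Rpl22l1, and 11 to 14 in the 5 shown that fell. With the annotated start as base 1, it began at base 33 in Rpl19, 15 in Rpl11, 4 in Rpl22l1 and 3 in Rpl13a. In Rpl14, Rps10 and Rps18 it began 8, 3 and 2 bases before the start. The windows of Rpl19 and Rpl11 do not hold the annotated start, so their runs lie inside the annotated transcript. Of the other two that fell and had a run, Rps24 had 11 letters, and Rps19 had 9 and 7 at separate starts. A match is a description of these letters and not a measured start.

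Base composition and level varied with the first-number change across members. Over the 78 members with a coding sequence, GC content had a Spearman correlation of -0.32 with the log2 fold change. Over 7120 tested genes it was -0.55. Rpl22l1 had the lowest GC content of these 78, at 39.6%, and the 15 members that fell had a median of 54.7%, beside 52.3% over the members. Mean FPKM had a correlation of -0.43 over 79 members, with a median of 4373 FPKM in the 15 that fell and 2069 FPKM in the 23 with a positive value. Coding length had -0.11, and the share of windows found elsewhere had 0.21. These points share libraries, and genes are not independent replicates. The part of base composition in the first-number difference was not tested.

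The genotypes were also compared within each first number. With 3 WT and 3 KI libraries at first number 1, 77 of 80 tested members had negative values and the median log2 fold change was -0.49, beside 0.02 over all genes. There edgeR called 0 members (0.0403% of all genes), and 36 had an unadjusted p under 0.05 (9.44% of all genes). At first number 2, 71 of 79 members had positive values, the median was 0.13, edgeR called 0 members (0.0126% of all genes), and 0 had an unadjusted p under 0.05 (5.17% of all genes). In share, KI minus WT was -5.36 points at first number 1 and 0.39 points at first number 2. The libraries under 1000000 gene counts fell unevenly here. WT 1-2 and WT 1-3, at 33.0% and 32.9%, were on the WT side of first number 1, where WT 1-1 was at 27.7%. KI 2-1, at 28.4%, was on the KI side of first number 2, where KI 2-2 and KI 2-3 were at 19.8% and 23.6%. The part of these libraries in the 2 differences was not tested. Within WT 31 members were lower at first number 2 (3.01% of all genes were), and within KI 2 were higher (2.67% of all genes were).

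The interaction of genotype and first number was tested directly. It called 0 members by edgeR (0% of all genes), and DESeq2 also called 0. At an unadjusted p under 0.05 there were 21 members by edgeR, where 7.21% of all genes were, and 31 by DESeq2, where 8.28% were. The interaction was positive for 78 of 79 members with a median of 0.66, beside 0.00 over all genes, and Rpl3 was the exception with -0.08 (SE 0.27). The largest values were 1.52 for Rpl39, 1.39 for Rpl22l1 and 1.28 for Rps27, and the lowest adjusted p of these was 0.345, for Rps27. Rpl39 had only 27 to 79 counts per library and Rpl22l1 13 to 186, against 1087 to 2362 for Rps27. Rps27 was at 1634, 2786 and 2863 CPM in WT and 691, 1336 and 1216 CPM in KI at first number 1, without overlap. At first number 2 it was at 1280, 1288 and 1076 CPM in WT and 1713, 904 and 1318 CPM in KI, with overlap. Leaving out 1 library moved the members' median to between 0.37, without KI 2-1, and 0.83, without KI 2-2. Without the 3 libraries under 1000000 gene counts it was 0.01 and 45 of 79 were positive. That fit left WT with 1 library at first number 1, assumed to vary like the other groups.

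**Figure D5:**
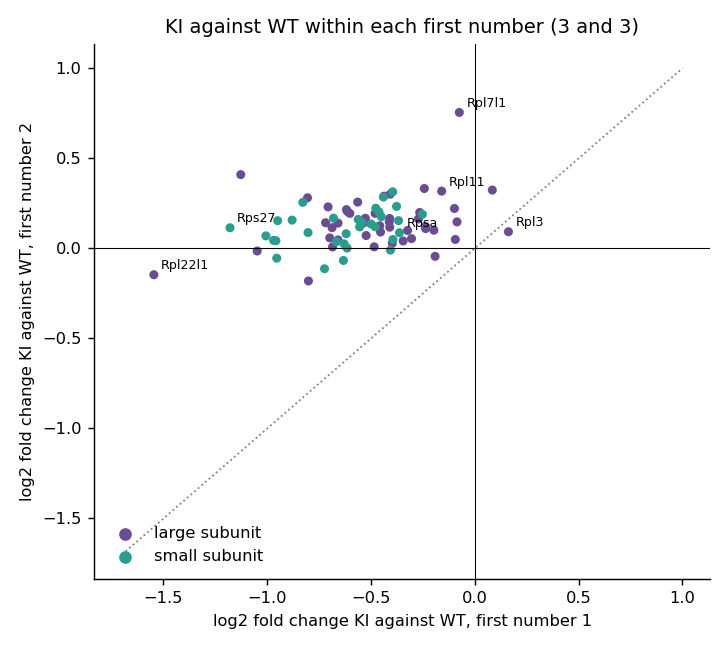
Log2 fold change of KI against WT at first number 1 (x axis) and first number 2 (y axis) for 79 members, each from 3 against 3 libraries, with the dotted line at equal values and colours for the subunit. Most points lie left of 0 on the x axis and slightly above 0 on the y axis.

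Members also differed in how closely they followed the family from library to library. The SD over 12 libraries of log2 CPM minus the members' mean was among the 4 smallest in Rpl37, at 0.10, and Rps20, at 0.12. It was largest in Rpl22l1, at 1.16, followed by Rpl7l1, at 0.67, Rpsa, at 0.51, and Rpl11, at 0.46. Rpl22l1 had only 13 to 186 counts per library and Rpl7l1 25 to 119, so counting error adds to their spread, while Rpsa had at least 16055. Rps27l, a p53-induced copy of Rps27, was at 38.8 to 114 CPM with an SD of 0.43, and its log2 fold change was 0.15 (SE 0.24) by first number and -0.33 (SE 0.26) by genotype. The stalk genes were negative by first number without passing the test, at -0.36 (SE 0.21) for Rplp0, -0.63 (SE 0.22) for Rplp1 and -0.37 (SE 0.19) for Rplp2. The X-linked Rps4x was at 0.01 (SE 0.23), Rps27a, made as a fusion with ubiquitin, at -0.02 (SE 0.19), Rpl10 at -0.39 (SE 0.20), Rpl7 at -0.07 (SE 0.19) and Rpl41, the shortest of the family's proteins, at 0.14 (SE 0.20).

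Other genes of the translation machinery were read from the same fits, as lists by function, where 16% of all genes were called in either direction by first number. Of 3 tested ribosome constituents with other names, edgeR called 1 lower at first number 2, Fau, a ubiquitin-like fusion that yields Rps30, with -0.78 (SE 0.20, adjusted p = 0.0101). Of 6 elongation factors 2 fell and 0 rose: Eef2, which moves the ribosome along, with -0.58 (SE 0.15) and Eef1g with -0.59 (SE 0.16). Of 31 initiation factors 8 rose and 1 fell, with a median of -0.04. Pabpc1, which binds poly(A) tails and whose own mRNA has a TOP tract, rose from 696 ± 160 to 1749 ± 260 CPM (SD, n = 6 each), with 1.33 (SE 0.16, adjusted p = 2.3e-05). Eif3e rose with 1.19 (SE 0.17), and Eif3g fell by 0.57 on the log2 scale. Members, elongation factors and initiation factors thus held calls in different directions within the same libraries.

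Of 70 mitochondrial ribosomal proteins, which are a separate family, 10 fell, among them Mrpl20 with -1.41 (SE 0.27) and Mrpl12 with -1.33 (SE 0.24), and 1 rose, Mrpl23, with 0.82 (SE 0.27). Together these 11 were 15.7% of the list, close to that share of all genes. Of 38 ribosome biogenesis genes 1 rose, the nucleolar protein gene Ncl, with 0.55 (SE 0.17), and 0 fell, while 10 of 38 had an unadjusted p under 0.05, where 30.4% of all genes did. Of 12 regulators of ribosomal protein synthesis, Rheb, the activator of mTORC1, rose with 0.78 (SE 0.26), and the translation inhibitors Eif4ebp1 and Eif4ebp2 fell with -1.01 (SE 0.32) and -0.78 (SE 0.22). Of 5 tested p53 targets Ccng1 and Trp53inp1 rose and Bax fell. Among 7 tested symbols that start like the members but name other proteins, Rps6ka1, a kinase, fell with -0.64 (SE 0.16). Between KI and WT edgeR called 0 genes of any of these lists, and the medians ran from -0.17 for the 3 constituents with other names to 0.24 for the 12 regulators. At an unadjusted p under 0.05 that comparison held 2 mitochondrial ribosomal proteins and 0 genes of the other lists.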

How the data were processed

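Raw read counts per gene symbol and FPKM values were deposited by the authors for 12 libraries. Per the submitters' processing notes, CASAVA, TopHat2, Cufflinks, HTSeq and DESeq2 were used with the build mm9; versions and roles are not given in the sources used here. The names of the unassigned entries in the count table are those HTSeq writes. FPKM values of names that occurred repeatedly were summed.

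The tests ran in R 4.3.3. The deposited counts went into edgeR 4.0.16 (filterByExpr, TMM scaling, glmQLFit, glmQLFTest), which left 7542 genes. Benjamini-Hochberg adjusted p-values over these genes under 0.05 counted as changed. CPM is scaled to TMM-adjusted totals, and log2 CPM has a prior count of 2. An SE is the fold change over the root of its F. Reads assigned to 1 gene made up 46.1% to 60.2% of the table, and the rest stayed out. The code was tested on simulated counts. Alternatives were RLE and upper-quartile scaling, scaling without the members, other filters, DESeq2 1.42.0, limma-voom (limma 3.58.1), FPKM on a log2 scale, blocks and left-out libraries. Leaving out the 3 libraries under 1000000 gene counts, and leave-one-out for the interaction, were chosen after seeing the data.

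The members, lists and tests were chosen with earlier results of these data known. Genes are named by a rule: a fixed list, members called (up to 10 each way), the 4 farthest above and below the members' median, the 4 most and least variable, the 5 highest and lowest in FPKM, and 2 genes per direction from each other list. Rpl23, Rpl14, Rpl13, Rps18, Rps15a and Rpl35 and the genes of the cited overlaps were named after their values were seen where the rule does not name them. Coding sequences came from GENCODE for NCBIM37, the assembly that mm9 names, using the transcript numbered first where there is one, and start sites from RefSeq. All counts and medians include 3 members whose own results are not reported here.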

Additional observations from a re-analysis of the deposited data

Results flagged for a closer look

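Among 172 sets of 6 libraries, 7, of which 6 are given here, had an end value whose gap to its neighbour was too large a part of the range by Dixon's test at the 95% level, and chance gives about 1 in 20. In WT, Rplp0 was highest in WT 1-3, at 22364 CPM, with the next library at 14282 CPM. In KI, Rpl7 was highest in KI 2-1, at 7784 CPM, against 5354 CPM in the next. KI 2-1 was also far above the other 5 libraries of first number 2 in 4 of these members. These were Rpl10 at 7173 CPM (next 4604), Rpl11 at 2781 CPM (next 1938), Rps4x at 4288 CPM (next 2934) and Rps6 at 4909 CPM (next 3382). Both libraries are among the 3 under 1000000 gene counts.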

How the results depend on the processing

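The number of members that differed by first number, 17 by edgeR, was 36 with no filter, 27 with DESeq2, 31 in WT alone and 2 in KI alone, and 8 to 34 when 1 library was left out. In the same fits 9.23%, 20.9%, 5.01%, 4.66% and 9.75% to 16.1% of all genes were called, beside 16.02% by edgeR on all libraries. All 17 members had the same sign in each of these fits. The count between KI and WT was 0 under each alternative run for it. That of the interaction was 0 with DESeq2, with RLE scaling, without 1 library and without the 3 shallow ones, and the other scalings, filters and limma-voom were not run for it. The KI minus WT difference in share ran from -3.62 to -1.36 points with 1 library left out, and the first-number difference from -6.18 to -3.91 points. On FPKM the members' medians were -0.17 by genotype and -0.19 by first number. Scalings moved the median over all genes by less than 0.1 on the log2 scale. The replicate numbers did not meet the criterion for pairing. Deviations of libraries with both numbers alike correlated at 0.083 to 0.258, and 4 of 12 libraries correlated best with their own number. Pairs with the same first number correlated at 0.039 to 0.390, and pairs with different first numbers at -0.328 to 0.014, so libraries did group by first number. In a fit with a replicate block by first number, 0 members were called between KI and WT, 9 had an unadjusted p under 0.05 (8.33% of all genes did), and the median was -0.18. With both numbers as a block 0 were called and 11 had an unadjusted p under 0.05 (8.26% of all genes did). The causes were not tested. The number of libraries limits precision, and paralogs, pseudogenes and overlapping genes limit what single members' counts mean.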
